A study of Drosophila melanogaster with 3 samples.

Results

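Hsp83, Hsp22, Hsp23, Hsp26, Hsp27, Hsc70-3, Hsc70-4, Hsp60A and Hsf are heat shock and chaperone genes of Drosophila melanogaster. They were taken as a named list of 9 genes out of the 18164 genes of the annotation used, and the binding of 1 protein, CG8089, was described at each of them. Every peak summit in a gene's body or within 2 kb of it was collected, and this stretch is called the gene's window. Binding was measured by chromatin immunoprecipitation and sequencing (ChIP-seq) in whole embryos of both sexes, collected from 0 to 24 hours. The embryos came from a stable transgenic strain, CG8089-GFP in the labels, whose CG8089-eGFP fusion protein carries green fluorescent protein (GFP) at the C-terminal end of CG8089. An anti-GFP antibody precipitated the tagged protein from chromatin sonicated to 200 to 800 bp. The 3 biological replicates, to which the labels give the numbers 2, 3 and 4, form a single group with no untagged or treated group beside it, and control libraries were not analysed here. The labels name no heat treatment, and they do not say whether the untagged CG8089 gene was still present.

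Heat shock proteins keep other proteins folded. The small heat shock proteins (Hsp22, Hsp23, Hsp26 and Hsp27) hold unfolded proteins in solution, Hsp83 is the fly Hsp90, Hsc70-4 and Hsc70-3 are Hsp70-type chaperones of the cytosol and the endoplasmic reticulum, and Hsp60A is the chaperonin of mitochondria. Hsf encodes the heat shock factor, which binds alternating GAA and TTC units called heat shock elements, and GAGA factor, which binds GA repeats, keeps many heat shock promoters open before heat. The cognate genes Hsc70-3 and Hsc70-4 are active without heat, Hsp83 is both active without heat and inducible, and the small heat shock genes are also switched on at set times in development.

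The deposited lists hold 30000 peaks per replicate, and as many for the replicates pooled. The authors' reproducible list holds 3233 peaks, which are the 3233 pooled peaks of highest signal. Signal is the authors' measure of strength; its scale is unknown here, and it was therefore used as a rank within a list, where rank 1 is the strongest peak, or as a multiple of the list's median. The median signal was 51.0 in the pooled list, 20.9 in replicate 2, 21.5 in replicate 3 and 19.9 in replicate 4. Read depth is unknown. In whole embryos, binding in fewer cells and weaker binding in each cell cannot be told apart.

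Reproducible peaks lay in the windows of 6 of the 9 genes, against 24.4% of all genes and 23.8% of the protein-coding genes of similar length. The 6 were Hsp83, Hsp23, Hsp26, Hsp27, Hsc70-4 and Hsc70-3, and no reproducible summit lay in the windows of Hsp22, Hsp60A or Hsf. Because Hsp23 and Hsp27 are neighbours that share 1 peak, the 6 genes held 5 separate peaks. Summits within 500 bp of one of the gene's own start sites, called promoter summits, were found at 4 of the 9 genes, Hsp83, Hsp26, Hsp27 and Hsc70-4. The same was true of 12.4% of all genes and of 14.6% of protein-coding genes. A gene with several start sites has more chances to count, and all of the 4 but Hsp27 have more than 1. With 1 group and a list of 9 genes chosen by name, these shares are a description and no test was made. The genes were chosen with earlier results of these data known, so the shares may partly reflect that choice. A summit of any strength in the pooled list was found at 9 of 9 genes, but also at 77.1% of all genes, so its presence alone says little. Likewise, a listed summit of any strength in every replicate was found at 9 of 9 genes and at 58.9% of all genes.

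DNA under the peaks is shown first, from the Release 6 genome (dm6), to let the promoters that held a reproducible peak be read beside those that did not. Each of the first 3 runs covers 201 bases centred on a pooled summit and is written 5′ to 3′ along the gene. Capitals mark the 8-letter word GAANNTTC or TTCNNGAA, the meeting of 2 units of a heat shock element, searched on both strands. The Hsp27 window holds no such word. At Hsp83 and Hsp22, 30 bases around 1 word are shown. For Hsp23 the 250 bases before its start site are shown, because it held 2 words but no reproducible promoter summit.
Hsp26, summit window, chr3L:9377433-9377633, minus strand: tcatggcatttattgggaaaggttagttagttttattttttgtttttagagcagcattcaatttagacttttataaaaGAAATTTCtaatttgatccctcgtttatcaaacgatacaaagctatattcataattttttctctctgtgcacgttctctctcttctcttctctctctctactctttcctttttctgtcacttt
Hsc70-4, summit window, chr3R:15242452-15242652, plus strand: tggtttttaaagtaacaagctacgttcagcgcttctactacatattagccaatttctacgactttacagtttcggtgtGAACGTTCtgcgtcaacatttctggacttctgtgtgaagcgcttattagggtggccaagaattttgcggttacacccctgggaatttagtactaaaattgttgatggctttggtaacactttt
Hsp27, summit window, chr3L:9383846-9384046, plus strand: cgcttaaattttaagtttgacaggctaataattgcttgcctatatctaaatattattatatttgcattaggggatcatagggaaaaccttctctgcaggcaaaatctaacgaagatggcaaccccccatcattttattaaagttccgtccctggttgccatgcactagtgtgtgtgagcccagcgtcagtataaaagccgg
Hsp83, site, chr3L:3193137-3193166, plus strand: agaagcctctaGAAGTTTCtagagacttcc
Hsp22, site, chr3L:9373899-9373928, plus strand: caaagggcgaaGAAAATTCgagagagtgcc
Hsp23, upstream of the start, chr3L:9381632-9381881, plus strand: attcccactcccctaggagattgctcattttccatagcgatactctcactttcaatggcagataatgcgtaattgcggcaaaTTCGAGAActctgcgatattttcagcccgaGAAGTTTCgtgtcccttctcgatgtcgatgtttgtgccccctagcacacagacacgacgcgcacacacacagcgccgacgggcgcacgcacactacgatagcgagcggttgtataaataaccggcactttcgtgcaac

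Hsp83, the Hsp90 gene, had the strongest peak among the 9 genes. The gene (FBgn0001233) lies on chromosome 3L at 3192969 to 3197059 on the plus strand, with annotated start sites at 3192969 and 3193216. Its reproducible peak covers 3192978 to 3193224, and the summit at 3193109 lay 107 bp upstream of the inner start site, inside the 5′ UTR of the longer transcript. The pooled signal was 435, rank 257. The peak ranked 641 in replicate 2, 123 in replicate 3 and 353 in replicate 4, so it was among the strongest 3233 peaks of each. Its signal was 4.78, 10.4 and 5.91 times the median of those lists, a mean of 7.02 ± 2.95 (SD, n = 3). Replicate 3 was the highest of the 3 and replicate 2 the lowest. The summits of the replicates fell within 5 bp of each other, at 112 to 117 bp upstream.

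A weaker summit in the Hsp83 intron, 1026 bp past the inner start site, was in the pooled list at rank 4236 and in all 3 replicate lists at ranks 4254, 7727 and 8659. It was not in the reproducible list. The heat shock element word of Hsp83 began 39 bp downstream of the promoter summit and 68 bp upstream of the inner start site, within the 30 bases shown. Just outside the window, 2058 bp from the gene body, lay a reproducible peak of rank 1370 whose summit was 27 bp from the start of gry.

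**Figure D1:**
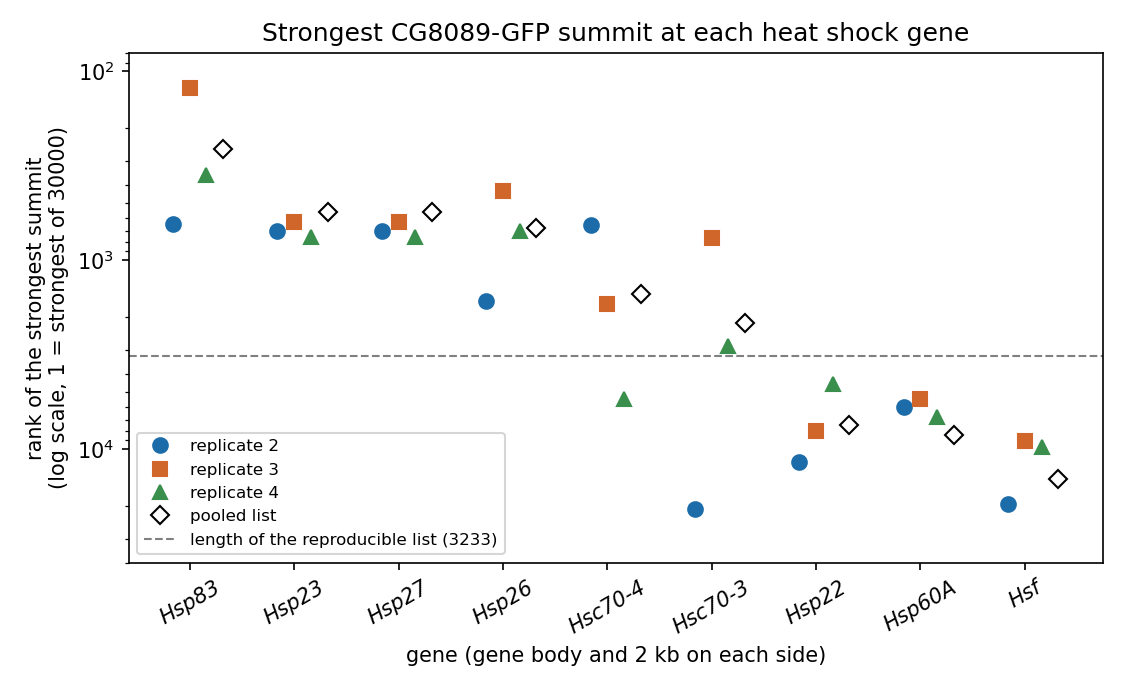
Rank of the strongest summit in each gene's window (vertical axis, log scale, 1 is the strongest of 30000) for the 9 genes in order of their pooled rank; filled marks are the 3 replicates, open diamonds the pooled list, and the dashed line the length of the reproducible list, 3233. Hsp83, Hsp23, Hsp27 and Hsp26 lie above the line in all replicates, with Hsp23 and Hsp27 sharing 1 peak, while Hsp22, Hsp60A and Hsf lie below it in all replicates.

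The plot of ranks by gene separates 3 kinds of member. Hsp83, Hsp23, Hsp26 and Hsp27 held a summit among the strongest 3233 peaks of every replicate, as did 16.2% of all genes. Hsc70-4 and Hsc70-3 did so in 2 of 3 replicates, at Hsc70-3 with a different site in each of the 2, and Hsp22, Hsp60A and Hsf in none.

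Hsp22, Hsp23, Hsp26 and Hsp27 stand together on 3L with Hsp67Ba, Hsp67Bc, CG4456 (also known as Hsp67Bb) and CG4461, 8 genes in 14.2 kb. The whole cluster held 2 reproducible peaks, one just upstream of Hsp26 and the other just upstream of Hsp27. Between 5 and 10 summits per replicate fell within the cluster's span, and in each replicate 2 of them were among its strongest 3233. These were the same 2 sites in all 3 replicates.

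**Figure D2:**
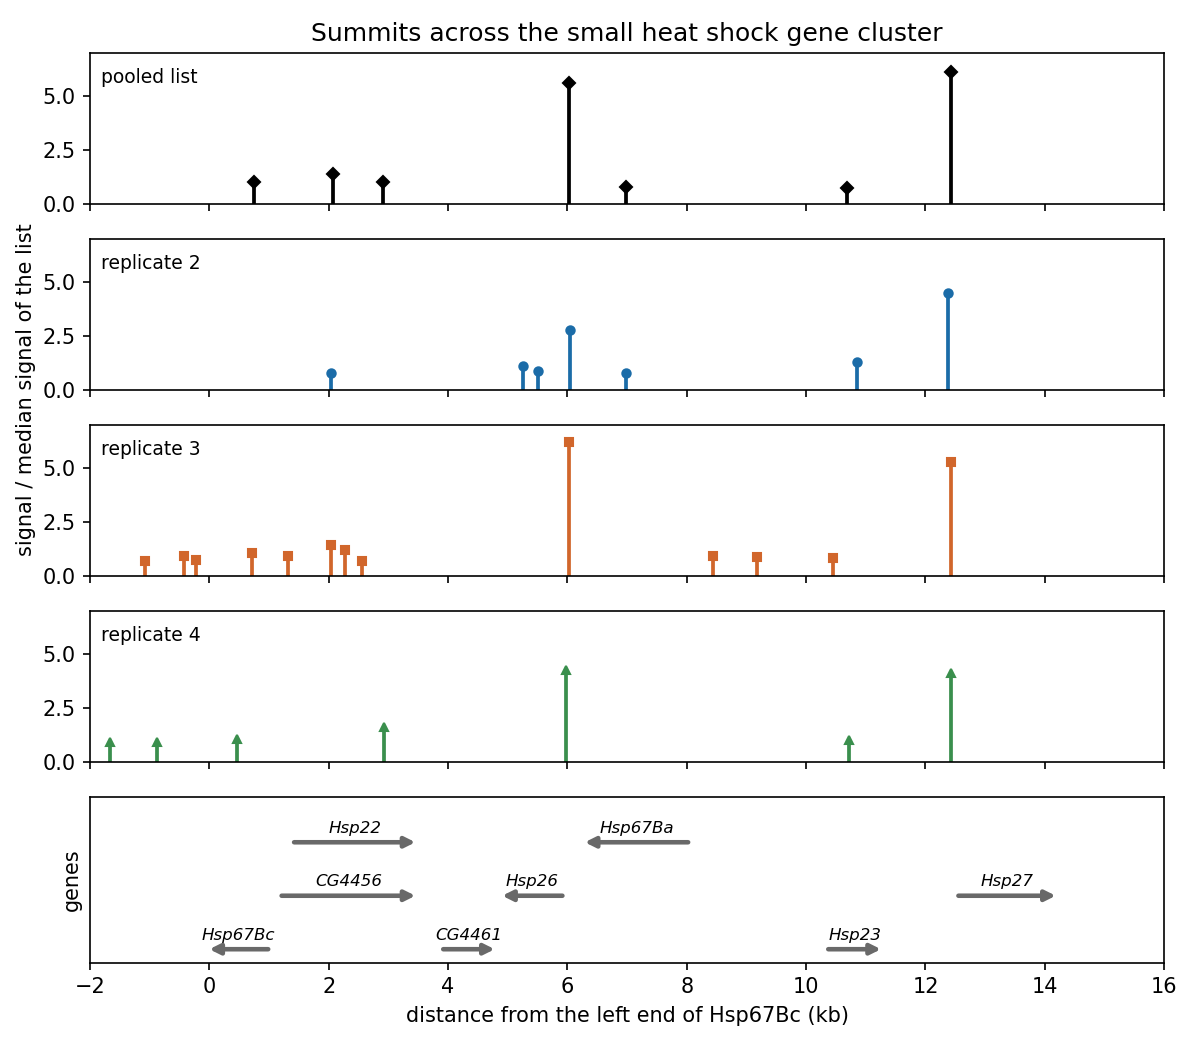
Summits across the small heat shock gene cluster in the pooled list and the 3 replicates (vertical axis, signal divided by the median signal of that list; horizontal axis, distance in kb from the left end of Hsp67Bc), with the genes drawn as arrows in the direction of transcription. The summits before Hsp26 and Hsp27 stand at 5.61 and 6.10 times the median in the pooled list, and all other pooled summits in the cluster at no more than 1.40 times.

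The Hsp27 gene (FBgn0001226, 3L, 9384063 to 9385694, plus strand) had a narrow peak of 173 bp at 9383820 to 9383992, with the summit at 9383946, 117 bp upstream of the start site. Its pooled signal of 311 ranked 553. The replicate ranks were 702, 625 and 752 in replicates 2, 3 and 4, and the signals 4.51, 5.27 and 4.13 times the medians, a mean of 4.64 ± 0.578 (SD, n = 3). The ratio of its worst to its best replicate rank was 1.20, the most even of the 5 peaks; 4.48% of the 2966 reproducible peaks found in all 3 replicate lists were as even or more so. The replicate summits lay 116 to 171 bp upstream, with replicate 2 the farthest out.

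This same peak is what places Hsp23 (FBgn0001224, 3L, 9381882 to 9382765, plus strand) among the 6 genes: it lies 1181 bp past the end of Hsp23 and 2064 bp from its start site. At the Hsp23 promoter itself the pooled summit ranked 28583, among the weakest of the list, and the strongest promoter summits ranked 7122, 20498 and 15724 in replicates 2, 3 and 4. Their positions differed too, at 476, 76 and 340 bp from the start site. No promoter summit of Hsp23 was thus among the strongest 3233 of any list.

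Hsp26 (FBgn0001225, 3L, 9376418 to 9377427, minus strand) had the second peak of the cluster, at 9377335 to 9377730, with the summit at 9377533, 106 bp upstream of its outer start site. The pooled signal was 286, rank 672. Replicate 2 placed the peak at rank 1644, replicate 3 at 429 and replicate 4 at 702, with signals of 2.75, 6.20 and 4.26 times the medians (mean 4.40 ± 1.73, SD, n = 3). As at Hsp83, replicate 3 was the highest and replicate 2 the lowest. The summit lay 119 and 112 bp upstream in replicates 2 and 3 and 55 bp upstream in replicate 4.

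Hsp22 (FBgn0001223, 3L, 9372931 to 9374964, plus strand) had no reproducible peak; the nearest was the Hsp26 peak, 2569 bp beyond its end. Its strongest pooled summit ranked 7467, and the strongest summit of its window ranked 11692, 8039 and 4531 in replicates 2, 3 and 4. These were not 1 site. The strongest of replicate 2 lay 2762 bp from an Hsp22 start, in the coding sequence of Hsp26. That of replicate 3 lay 444 bp from the inner start on its upstream side, and that of replicate 4 lay 433 bp from it on the downstream side. Within 500 bp of an Hsp22 start, the strongest summit of replicate 2 ranked 28626. CG4456 overlaps Hsp22 on the same strand, so summits there cannot be assigned to one or the other.

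Hsc70-4 (FBgn0266599, 3R, 15242687 to 15246614, plus strand), the main cytosolic Hsp70 cognate, had a reproducible peak at 15242354 to 15242749. Its summit at 15242552 lay 135 bp upstream of the first of 6 annotated start sites. The pooled signal was 182, rank 1514, close to the reproducible list's median signal of 175. Replicates 2, 3 and 4 ranked it 653, 1699 and 5437, and its signals were 4.71, 3.14 and 1.50 times the medians (mean 3.12 ± 1.60, SD, n = 3). Here replicate 2 was the highest and replicate 4 the lowest, outside its own strongest 3233. The replicate summits spread over 117 bp, from 50 bp upstream in replicate 4 to 167 bp in replicate 2.

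At Hsc70-3 (FBgn0001218, X, 11801696 to 11807117, minus strand), which encodes the chaperone known as BiP, the reproducible peak lay at 11807438 to 11807833. Its summit, at 11807636, was 519 bp upstream of the outermost start site and so just outside the 500 bp taken as promoter. The pooled signal was 148, rank 2150. The replicates disagreed about its strength: it ranked 27156 in replicate 2, 759 in replicate 3 and 6260 in replicate 4, with signals of 0.791, 4.75 and 1.42 times the medians (mean 2.32 ± 2.13, SD, n = 3). Only 14 of the 2966 reproducible peaks found in all 3 replicate lists had a ratio of worst to best rank as large as its 35.8, and the median ratio was 2.41. The position was steadier than the strength, 508 to 530 bp upstream in the 3 replicates. Inside the gene, a further summit ranked 2857 in replicate 4 and 5950 in the pooled list, and neither replicate 2 nor replicate 3 had a summit in that peak. An overlapping pooled peak of rank 7503 held a summit of every replicate, at ranks 20793, 8730 and 10367 in replicates 2, 3 and 4. The reproducible peak itself was among the strongest 3233 in replicate 3 alone.

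**Figure D3:**
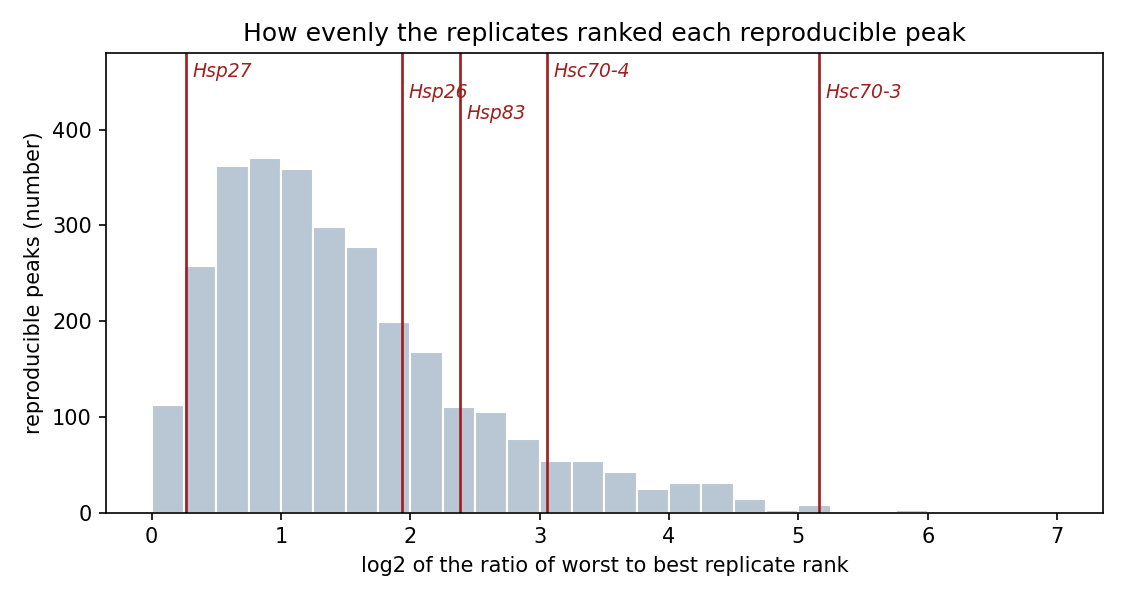
Number of reproducible peaks (vertical axis) by the log2 of the ratio of the worst to the best replicate rank (horizontal axis), for the 2966 peaks found in all 3 replicate lists; red lines mark the 5 peaks of the heat shock and chaperone genes, the Hsp27 line standing for the peak it shares with Hsp23. The Hsp27 peak, at a ratio of 1.20, lies at the even end and the Hsc70-3 peak, at 35.8, in the far tail.

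The ratios of the other 3 peaks were 3.83 for Hsp26, 5.21 for Hsp83 and 8.33 for Hsc70-4, all above the median of 2.41. Of the 5 peaks, the plot of rank ratios therefore shows 1 that was ranked more evenly than the typical reproducible peak and 4 that were ranked less evenly.

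**Figure D4:**
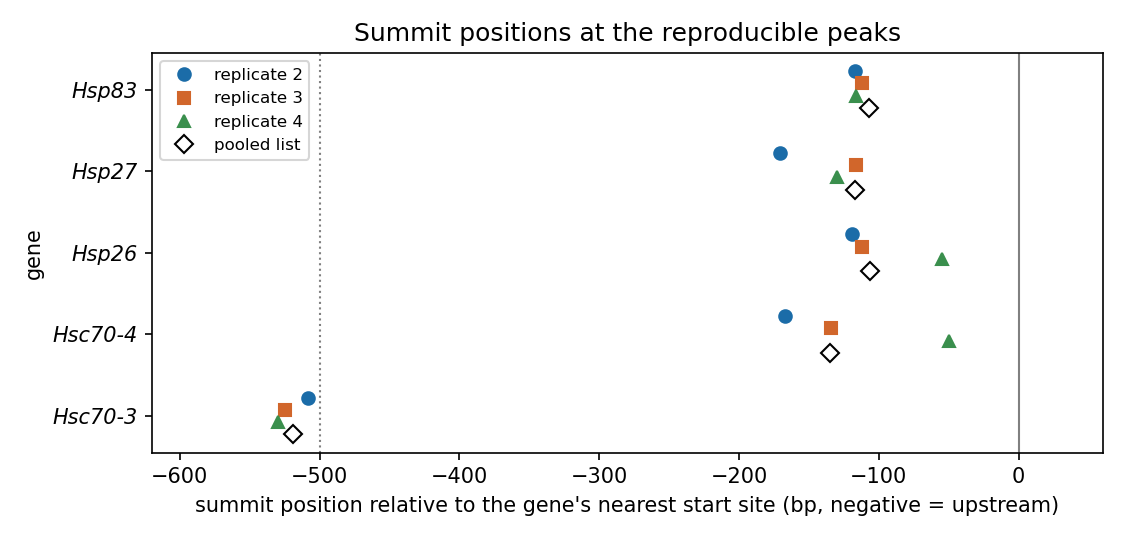
Position of the summit relative to the gene's nearest start site (horizontal axis, bp, negative is upstream) at the 5 reproducible peaks in the 3 replicates and the pooled list; the solid line is the start site and the dotted line marks 500 bp upstream. Every summit lies upstream; 4 of the 5 peaks lie within 171 bp of the start and the Hsc70-3 summits lie between 508 and 530 bp.

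Neither the chaperonin gene nor the gene of the heat shock factor carried a strong peak. Hsp60A (FBgn0015245, X, 11108482 to 11112308, plus strand) had its strongest pooled summit in an intron, 230 bp past the first start site, at rank 8428. The strongest summits of its window ranked 5963, 5415 and 6775 in replicates 2, 3 and 4, which were similar ranks at 3 different places. The nearest reproducible peak was 172 kb away.

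Hsf (FBgn0001222, 2R, 18130303 to 18134634, minus strand) was the weakest of the 9. Its best pooled summit ranked 14426, near the middle of the list, and lay closer to the start of the neighbouring gene Pcl, at 801 bp, than to that of Hsf. The strongest summits of its window ranked 19586, 9024 and 9739 in replicates 2, 3 and 4. A summit within 500 bp of the Hsf start was listed in replicate 4 alone, at rank 10552, and the nearest reproducible peak lay 22.3 kb from the gene.

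Heat shock element words were then set beside the binding. Within 100 bp of the summit, 3 of the 5 peaks held the word (Hsp83, Hsp26 and Hsc70-4), against 10.5% of the 3233 reproducible peaks and 8.48% of the other 26767 pooled peaks. At Hsp26 and at Hsc70-4 it began 22 bp before the summit on the gene's strand, as the capitals in the runs above show. The peak of Hsp27 held none. The 5 peaks lie at genes chosen as heat shock and chaperone genes. Most of the 9 genes held the word near a start, with or without a reproducible promoter summit. Whether the word goes with CG8089 binding was not tested. Over the reproducible peaks as a whole the word was thus uncommon and only slightly more frequent than in the weaker peaks; over the whole peak the shares were 16.9% and 16.7%.

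In the stretch from 250 bases before to 50 after an annotated start, the word occurred at 7 of the 9 genes, all but Hsp27 and Hsf, against 18.9% of all genes. Several of these genes have more than 1 start site, up to 6 at Hsc70-4, which gives the word more chances to occur. Of the 4 genes with a reproducible promoter summit, 3 held the word in this stretch (Hsp83, Hsp26 and Hsc70-4), as did 4 of the 5 genes without one, and Hsf had neither. Hsp23, with words 168 and 138 bp before its start, and Hsp22, with words 188 and 87 bp before its inner start, had no reproducible promoter summit, whereas Hsp27 had one without the word in this stretch. Hsp60A held a word 119 bp before its second start and Hsc70-3 one 80 bp before its outermost start, and neither had a reproducible promoter summit.

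The word GAGAG, part of the sites of GAGA factor, was searched in the same way on both strands. It occurred at the starts of 5 of the 9 genes (Hsp22, Hsp23, Hsp26, Hsc70-3 and Hsc70-4), against 34.6% of all genes. Here too, all of these genes but Hsp23 have more than 1 start site, which gives the word more chances to occur. At Hsc70-4 it occurred at later starts but not at the first, the one nearest its reproducible peak. Within 100 bp of the summit, 2 of the 5 peaks held it, among them Hsp26 with 6 overlapping or close matches, against 26.2% of reproducible and 25.7% of other pooled peaks. At Hsp26 the 6 matches lie on the opposite strand, as repeats of ctctc, from 38 to 71 bp after the summit.

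Other chaperone genes were read from a list of 53 names, of which 52 matched the annotation. A reproducible promoter summit was found at 6 of the 52 (11.5%), against 12.4% of all genes, a share near the background. The 6 were mrj, DnaJ-H, Hsc70-5, Cdc37, CG11267 and lncRNA:Hsromega. By class, they were 2 of 9 J proteins, which hand clients to Hsp70, 1 of 6 Hsp70 cognates and exchange factors, 1 of 8 Hsp90 family members and co-chaperones, 1 of 13 chaperonins and the noncoding heat shock RNA. None of the 8 further small heat shock genes and none of the 7 inducible Hsp70 genes had one. Of those 8, Hsp67Ba and CG4461 had the Hsp26 peak in their windows.

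The J protein gene mrj had a stronger peak than any of the 9 genes, with a signal of 523 at rank 169, 287 bp upstream of its start. The replicates ranked it 208, 168 and 161, close to one another. Hsc70-5, the mitochondrial Hsp70, followed at rank 1048 (617, 2132 and 1378 in replicates 2, 3 and 4) with the summit 21 bp inside the gene. CG11267, which encodes a chaperonin of the Hsp10 type, had a peak at rank 1137, 102 bp upstream (736, 1275 and 2076). All 3 peaks were among the strongest 3233 of each replicate.

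The other 3 promoter peaks were weaker, and the replicates ranked those of lncRNA:Hsromega and DnaJ-H less evenly. The lncRNA:Hsromega promoter peak had rank 2383, and replicates 2, 3 and 4 ranked it 1511, 14723 and 1111. The wider window of this gene held a stronger pooled summit, of rank 812. That window also held a summit among the strongest 3233 of every replicate, though not necessarily at 1 site. Cdc37, an Hsp90 co-chaperone, had rank 2945 (8545, 2821 and 5031), and DnaJ-H had rank 3096 (1314, 14358 and 2274). Each of these 3 promoter peaks fell outside the strongest 3233 in 1 or more replicates. The 6 near-identical Hsp70 genes held no pooled summit, but reads from such copies may be lost or split in alignment, so their value is uncertain. Hsp68, the seventh inducible gene, held 4 pooled summits, the strongest at rank 5350.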

How the data were processed

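ChIP-seq peak lists of 3 biological replicates of 1 group were used. Per the deposited lists, the authors called peaks per replicate and on all replicates pooled. The authors gave each peak a signal value of unknown scale and a −log10 q-value. Peaks were ranked by signal because the deposited −log10 q-value stood at its ceiling of 3.81 for 3193 of the 3233 reproducible peaks. Not given in the sources used here: peak caller, version and reproducibility threshold. Depth is unknown, so no precision was derived from it, and no control library was analysed here. Of the 5 summit windows, 3 are printed whole, 1 in part, and 1 is not reported here. The reproducible list is part of the pooled list, and the replicates make up that list, so their ranks are not independent of it.

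Lists on dm6 were annotated with Ensembl release 115 (FlyBase 6.54) and the Release 6 genome; 99.8% of annotated start codons read as such in it. Lists on dm3 were not used. A summit belonged to a gene when it lay in the gene body or within 2 kb, and to a promoter when within 500 bp of an annotated start. A replicate summit was matched to a peak when it lay inside the peak. Means ± SD are over the 3 replicates. Names Hsp67Bb, Hsc70Cb and Hop were matched as CG4456, Hsp110 and Stip1 through RefSeq synonyms. Summit and word searches were tested on simulated data. Python 3.11.15, numpy 2.4.6, pandas 2.3.3 and matplotlib 3.10.9 were used.

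The members, the list of other chaperones and the words searched were chosen with earlier results of these data known. Genes named were the 9 members, the listed chaperones with a reproducible promoter summit and the gene nearest each peak; Hsp67Ba, Hsp67Bc, CG4456, CG4461, Pcl, gry, Hsp68 and the other neighbours were named after their values were seen. All words other than the heat shock element were added after the data were seen. Alternatives were other windows, the stronger 1616 peaks, overlap in place of summits, nearest start only and lists without each replicate.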

Additional observations from a re-analysis of the deposited data

How the results depend on the processing

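Except where any listed peak counted, the share of all genes under each changed setting is not reported here. A change in the counts below can therefore not be told apart from a change in how many genes are called. The 6 genes with a reproducible summit became 1 when only the gene body counted, since 4 of the 5 peaks lie upstream of their genes. They ranged from 4 to 5 when a replicate was left out, and were 5 to 7 under the other alternatives. The 4 genes with a reproducible promoter summit ranged from 3 to 4 without a replicate. Hsc70-4 was lost without replicate 2 and without replicate 3, and both lists kept replicate 4, where its peak ranked 5437. The lists without replicates 2, 3 and 4 held 2054, 2119 and 1892 peaks, fewer than the 3233 of the reproducible list. Each reproducible peak of the members or other chaperones lost from these lists ranked beyond 3233 in a replicate that was kept. These losses therefore do not show that a peak depended on the replicate left out. The 4 genes with a strong summit in every replicate became 1 with the gene body only and 9 when any listed peak counted (58.9% of all genes), and were 4 to 5 without a replicate. The 6 other chaperone genes became 3 in the stronger 1616 peaks and 3 to 5 without a replicate. The 3 peaks with a heat shock element word stayed at 3 within 50 bp and over the whole peak, while the share of reproducible peaks went from 10.5% to 5.54% and 16.9% and that of other pooled peaks from 8.48% to 4.11% and 16.7%. Restricting the strongest summit to the promoter moved the mean rank, as a percent of the list, from 27.0 to 45.8 for Hsp22 and from 2.31 to 48.2 for Hsp23. It went from 20.2 to 22.6 for Hsp60A and from 27.1 to 36.0 for Hsc70-3. Hsf had no such mean, because replicate 4 alone listed a promoter summit. For the strongest summit of the whole window, the mean without replicate 2 was 6.03 in place of 27.1 for Hsc70-3. It was 1.88 in place of 3.08 for Hsp26 and 0.793 in place of 1.24 for Hsp83, and without replicate 4 it was 3.92 in place of 8.65 for Hsc70-4. At Hsc70-3 these summits were different sites in the 3 replicates, and its reproducible peak itself had a mean of 38.0. No paired analysis was possible because there was 1 group. Unknown depth leaves a weak or missing summit as not detected rather than absent.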

Other observations

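Around Hsp83, weaker summits lay at the starts of both neighbouring genes. One, 3 bp from the start of CG14965, ranked 17697 in the pooled list and was listed in replicates 2 and 3. Another, 44 bp from the start of CG14966, ranked 12127 and was listed in replicates 3 and 4. A further summit, 586 bp from the start of CG14966, ranked 7577 and reached rank 2897 in replicate 4. None was in the reproducible list.

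The word ACACTG, chosen after it was seen to be frequent in these peaks, occurred within 100 bp of the summit in 20.9% of reproducible and 11.2% of other pooled peaks. Of the 5 peaks of the heat shock and chaperone genes it occurred in 1, at Hsp83, 19 bp before the summit. The word TATCGATA, found at many promoters of broadly active fly genes, occurred in 3.80% of reproducible and 1.28% of other pooled peaks and in 0 of the 5. It was present once at Hsp83 outside that range, 182 bp before the outer start site.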
